A study of Mus musculus with 6 samples.

Results

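Glutathione and antioxidant enzymes were described here in acinar cells of the mouse pancreas, which secrete digestive enzymes. The members were taken by gene symbol: all Gst genes of the alpha, kappa, mu, omega, pi, theta and zeta classes, all Gpx, Prdx, Mgst and Sod genes, and Cat, Gclc, Gclm, Gsr, Gss, Nqo1, Hmox1, Srxn1, Txn1, Txn2, Txnrd1, Txnrd2 and Txnrd3. This gave 55 members of the 55367 symbols in the count files. The rule reads gene symbols and no measured value.

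The study sequenced RNA from 6 libraries of 1 group. All came from pancreas, with no treatment given, and the labelled genotype was Pdx1-Cre; Klf5-mCherry-CreERT2, so every library carries both alleles and there is no wild-type or treated group. Pdx1-Cre drives the recombinase Cre in the Pdx1-expressing pancreatic lineage, and Klf5-mCherry-CreERT2 ties a red fluorescent protein and a drug-inducible Cre to the Klf5 gene. Each library was made from 300 cells sorted as GFP-positive, while the genotype label names no GFP reporter, and age, sex and the number of animals are not given. A number in the deposited names, of unstated meaning, separates replicates 4 to 6, called set B, from replicates 1 to 3, called set A. The sets are not labelled groups and were compared only as a possible batch. Whether each library is a separate animal is not stated. The p-values therefore measure only the spread between these samples, which may be technical.

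Glutathione is a small thiol made by glutamate-cysteine ligase (the Gclc and Gclm subunits) and glutathione synthetase (Gss), and kept reduced by glutathione reductase (Gsr). Glutathione peroxidases use it to reduce peroxides, and glutathione S-transferases join it to reactive compounds. Peroxiredoxins, thioredoxins and thioredoxin reductases form a parallel peroxide-reducing chain, while superoxide dismutases and catalase act without either thiol. Many of these genes are known targets of the transcription factor NRF2, which binds antioxidant response elements. Acinar cells form very many disulphide bonds in the endoplasmic reticulum (ER), and the ER enzymes that do so release hydrogen peroxide.

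Total counts ranged from 4670819 to 7072270 per library. The members took 1331 to 4247 counts per library, from 0.0285% (95% Clopper-Pearson interval 0.0270 to 0.0301) in replicate 5 to 0.0602% (0.0584 to 0.0621) in replicate 1. Ribosomal RNA took 59.9 to 60.9% of the counts in set B and 38.1 to 46.8% in set A. All 10 listed acinar markers were above background in every library, which fits the cell type label. Ductal markers were also present: 5 of 8 were above background in every library, and the list summed to 51.9 to 175 TPM in set B and 69.6 to 104 TPM in set A. Endocrine markers summed to 1009, 42.4 and 2243 TPM in replicates 4, 5 and 6 of set B and to 40.0, 23.2 and 9.34 TPM in replicates 1, 2 and 3 of set A, so replicates 4 and 6 stood apart. Replicate 5 stood apart in another way, in counts over genes for olfactory and vomeronasal receptors, which acinar cells are not known to express. These counts were 52.3, 326 and 109 per Mb in replicates 4, 5 and 6 of set B. In set A they were 26.4, 26.8 and 39.2 per Mb in replicates 1, 2 and 3, so every set B library was higher.

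Levels are given as TPM, a unit of transcript abundance, counts per kb of exon scaled to the sum of that quantity over all genes of the library. That sum includes ribosomal RNA, whose share was higher in set B, so an order of the sets in TPM can depend on this scaling. The counts include introns, so each gene's counts were also set against the receptor-gene background multiplied by the length of its span. A member is called measured where its mean was at least 1 TPM and its counts exceeded 3 times that background in every library. Intervals and the limit that a count of 0 allows (3 counts, or 0.424 to 0.642 CPM, CPM being counts relative to all counts of a library) cover counting error only.

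The sequences upstream of the 2 highest members are shown first, because these genes led the members in every library by exon length. They run 5′ to 3′ on the gene's own strand over 250 bases before the RefSeq start (GRCm38.p6), and capitals mark any antioxidant response core TGACNNNGC or its variant TGAGNNNGC, on either strand.
Gstp1, chr19:4037913-4038162, minus strand: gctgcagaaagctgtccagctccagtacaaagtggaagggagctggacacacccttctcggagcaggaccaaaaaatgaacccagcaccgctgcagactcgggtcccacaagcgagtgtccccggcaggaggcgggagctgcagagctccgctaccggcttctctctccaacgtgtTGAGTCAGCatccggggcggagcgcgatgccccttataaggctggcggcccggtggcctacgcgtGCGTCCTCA
Prdx4, chrX:155338461-155338710, minus strand: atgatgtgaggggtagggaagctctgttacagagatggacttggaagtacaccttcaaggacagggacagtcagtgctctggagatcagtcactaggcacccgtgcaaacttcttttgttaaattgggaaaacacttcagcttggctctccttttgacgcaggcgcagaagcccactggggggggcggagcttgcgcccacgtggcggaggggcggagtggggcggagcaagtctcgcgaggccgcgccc
The Gstp1 window held 2 matches to the variant core, beginning 74 and 9 bases before the start, and the first match also contains TGAGTCA, the letters bound by AP-1. The Prdx4 window held neither form.

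The core TGACNNNGC lay in the window from 250 bases before to 50 after the start in 9 of the 48 members with a RefSeq promoter entry (18.8%), against 14.0% of 27025 genes. The variant TGAGNNNGC lay in 11 of them (22.9%), against 19.8% of genes. The ER stress element (CCAAT, 9 bases, CCACG) was in 0 of the 48 and in 0.137% of genes. These shares are descriptions of letters, and 5 windows of members with the core are shown, with the 9 matching bases in capitals: Prdx1, Sod1 and Gstm5 were measured members, and Gclm and Txnrd1 are textbook NRF2 targets.
Prdx1, chr4:116685450-116685490, plus strand: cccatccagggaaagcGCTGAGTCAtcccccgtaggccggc
Sod1, chr16:90220690-90220730, plus strand: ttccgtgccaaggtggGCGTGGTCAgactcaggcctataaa
Gstm5, chr3:107895796-107895836, plus strand: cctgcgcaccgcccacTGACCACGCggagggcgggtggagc
Gclm, chr3:122245407-122245447, plus strand: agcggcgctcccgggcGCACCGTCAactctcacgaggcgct
Txnrd1, chr10:82859098-82859138, plus strand: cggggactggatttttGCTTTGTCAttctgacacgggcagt
The Prdx1, Sod1, Gclm and Txnrd1 matches read on the opposite strand, and that of Prdx1, like the first of Gstp1, contains TGAGTCA. Variant-core matches of Gstp2 and Srxn1, which averaged 0.576 and 0.337 TPM, contain the same letters. Of the 9 members with the core, 3 were measured and 3 averaged under 1 TPM (Gclm, Gsta3 and Srxn1). However, 90.1% of Gclm and 93.7% of Gsta3 exon bases lie inside the spans of other genes. Their low values say little about their RNA, so no link between the letters and the level is read.

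Of the 55 members, 32 (58.2%) averaged at least 1 TPM, against 32.3% of 21936 protein-coding nuclear genes. The median level over the 55 members was 1.65 TPM, against 0.493 TPM over protein-coding genes. Of the members, 8 (14.5%) reached 10 TPM, against 3.02% of protein-coding genes: Gstp1, Prdx4, Txn1, Gpx1, Gstm2, Gpx4, Gstm1 and Prdx1. Measured members numbered 18 (32.7%), against 11.1% of protein-coding genes. Without replicate 5, whose background was highest, 29 members (52.7%) were measured, against 22.2% of protein-coding genes. Dividing by the whole counted span, which penalises genes with long introns, left 17 members (30.9%) at 1 TPM or more, against 8.62% of protein-coding genes.

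**Figure D1:**
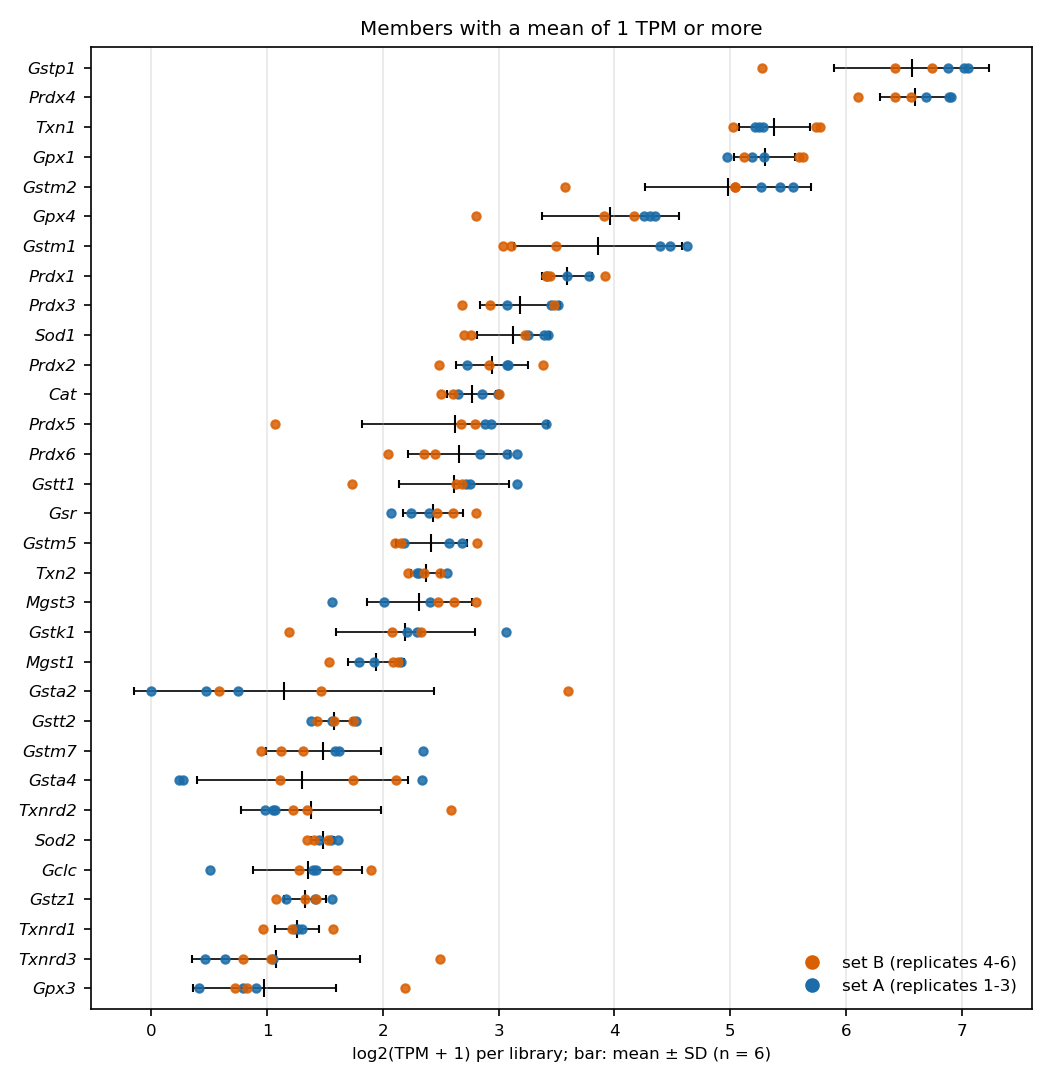
Level of the 32 members with a mean of at least 1 TPM, as log2(TPM + 1) on the x axis, 1 row per gene in order of mean TPM. Points are libraries (orange set B, blue set A), and the tick and bar are the mean ± SD over 6 libraries; by this exon-length scale Gstp1 and Prdx4 lie to the right of all other members in every library.

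Prdx4 and Gstp1 were the 2 highest members in each of the 6 libraries by exon length. By the whole counted span Gstp1 averaged 94.8 TPM, Gpx1 56.7 TPM, Prdx4 18.7 TPM and Gstm2 18.3 TPM, so the place of Prdx4 rests on the length used. Prdx4 (chromosome X, 155323918 to 155340754, minus strand, GRCm38) is the peroxiredoxin of the ER and secretory pathway, where it reduces hydrogen peroxide and passes oxidising equivalents to protein disulphide isomerases. It stood at 85.1, 67.9 and 93.4 TPM in replicates 4, 5 and 6 of set B and at 117, 119 and 103 TPM in replicates 1, 2 and 3 of set A. All 3 set B libraries lay below all 3 set A libraries on this scale, with replicate 5 lowest. Its total of 4310 counts was the largest of any member, and expected background was 0.227% of it.

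Gstp1 (chromosome 19, 4035407 to 4037985, minus strand), the pi-class transferase that conjugates glutathione to electrophiles, had 106, 37.8 and 84.8 TPM in replicates 4, 5 and 6 of set B and 129, 132 and 117 TPM in replicates 1, 2 and 3 of set A. Replicate 5 was far below the other libraries. The mean was 101 ± 35.4 TPM (SD, n = 6). Within libraries Gstp1 minus Prdx4 averaged -0.03 ± 0.42 on the log2(TPM + 1) scale, with Gstp1 higher in 4 of 6 libraries, so their order was not resolved. Gstp2, a near-identical neighbour, was listed with 9 counts and Gstp3 with 8. How reads matching several copies were counted is not given in the sources used here, so the split among the 3 pi-class genes is uncertain.

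Next came the cytosolic thioredoxin Txn1 (chromosome 4, 57943373 to 57956411, minus strand), which reduces peroxiredoxins and other protein disulphides, at 52.4, 31.7 and 53.9 TPM in replicates 4, 5 and 6 of set B and 38.0, 36.3 and 37.1 TPM in replicates 1, 2 and 3 of set A. Gpx1 (chromosome 9, 108338903 to 108340343, plus strand), the main cytosolic glutathione peroxidase, had 47.3, 33.8 and 48.5 TPM in replicates 4, 5 and 6 of set B and 30.4, 38.2 and 35.4 TPM in replicates 1, 2 and 3 of set A. For both genes the sets overlapped, with replicates 4 and 6 highest. Txn1 minus Gpx1 averaged 0.08 ± 0.15 on the log2 scale, so these neighbours did not differ beyond their spread. By the single principal transcript in place of all annotated exons, Txn1 averaged 20.1 TPM and Gpx1 25.2 TPM, so the levels rest on the lengths assumed. The length of Txn1 itself is 1051 bases in both, and its level moved with the lengths of the other genes in the total.

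Glutathione transferases of the mu class followed. Gstm2 (chromosome 3, 107981702 to 107986453, minus strand) stood at 31.9, 10.9 and 32 TPM in replicates 4, 5 and 6 of set B and at 37.5, 45.6 and 42.2 TPM in replicates 1, 2 and 3 of set A. Gstm1 (chromosome 3, 108012255 to 108017973, minus strand) stood at 10.3, 7.64 and 7.21 TPM in set B and at 20.1, 21.4 and 23.8 TPM in set A. On this TPM scale neither gene's sets overlapped. Gstm5 averaged 4.45 ± 1.17 TPM and Gstm7 1.96 ± 1.14 TPM, while Gstm3, Gstm4 and Gstm6 had 5 to 18 counts in all. The mu genes are close paralogs in 1 cluster, so reads may have been split or lost among them.

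Gpx4 (chromosome 10, 80047166 to 80056439, plus strand), the selenoenzyme that reduces lipid hydroperoxides in membranes, had 17.0, 5.98 and 14.0 TPM in replicates 4, 5 and 6 of set B and 18.8, 18.1 and 19.4 TPM in replicates 1, 2 and 3 of set A. On this scale, whose total includes ribosomal RNA, set B lay below set A throughout, and replicate 5 was lowest. Gpx3, the secreted plasma peroxidase, had a median of 0.756 TPM and a highest value of 3.58 TPM. Gpx5, Gpx6 and Gpx7 had 10, 4 and 12 counts in all. Gpx2 and Gpx8 had 0 counts, but each lies wholly inside the span of another gene (Fntb and Cdc20b), so nothing is read from those zeros. In the files 2946 of 21936 protein-coding nuclear genes had no counts, but only 1396 of the 19431 without such overlap of most of their exon bases.

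All 6 peroxiredoxins were measured. After Prdx4, the cytosolic Prdx1 (chromosome 4, 116685544 to 116700822, plus strand) ranged from 9.60 to 14.1 TPM with a median of 10.5. The mitochondrial Prdx3 ranged from 5.41 to 10.4 TPM (median 8.67) and the cytosolic Prdx2 from 4.61 to 9.42 TPM (median 7.01). Prdx5, which is found in mitochondria, peroxisomes and cytosol, ranged from 1.10 TPM in replicate 5 to 9.62 TPM, and Prdx6, the peroxiredoxin that works with glutathione, from 3.12 to 7.94 TPM. Srxn1, sulfiredoxin, which restores overoxidised peroxiredoxins, had 19 counts in all and at most 0.858 TPM in any library. That was below every peroxiredoxin's lowest library.

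Among the enzymes that act on superoxide and hydrogen peroxide without thiols, Sod1, the cytosolic copper-zinc dismutase, had 8.36, 5.78 and 5.5 TPM in replicates 4, 5 and 6 of set B and 9.78, 9.53 and 8.55 TPM in replicates 1, 2 and 3 of set A. Its principal transcript of 641 bases is far shorter than its union of exons of 3970 bases, and by the former it averaged 24.6 TPM. Sod2, the mitochondrial manganese enzyme, varied least of the 32 members in relative terms, between 1.54 and 2.05 TPM (coefficient of variation 0.106). Cat, peroxisomal catalase, ranged from 4.66 to 7.03 TPM and failed the background rule in 1 library. Sod3, the extracellular form, had 19 counts in all.

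Thioredoxin and glutathione recycling enzymes averaged under 10 TPM. Gsr (4.47 TPM) and Txnrd2 (1.84 TPM) averaged above the member median of 1.65 TPM, and Txnrd1 (1.41 TPM) and Txnrd3 (1.40 TPM) below it. The cytosolic reductase Txnrd1 had a median of 1.38 TPM, the mitochondrial Txnrd2 1.22 TPM and Txnrd3, best known from testis, 0.886 TPM. Txn2, the mitochondrial thioredoxin, was steadier at 3.65 to 4.89 TPM. Glutathione reductase, Gsr, ranged from 3.20 to 6.00 TPM. For Txnrd1, Txnrd2, Txnrd3 and Gsr expected background came to 18.1%, 21.4%, 27.7% and 10.7% of counts. That share depends on both span and counts. Txnrd3, with a span of 31542 bases, had 66 counts, while Cat, with 31312 bases, had 316 counts and a share of 5.75%.

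Glutathione synthesis could be followed only in part. Gclc, the catalytic subunit of glutamate-cysteine ligase, had a lowest value of 0.419 TPM, a median of 1.66 TPM and a highest of 2.74 TPM, with 19.8% of its counts expected as background. Gclm, the modifier subunit, had 32 counts and Gss 10 counts in all. However, 90.1% of Gclm exon bases lie inside the spans of Gm17494 and Gm6061, and 97.7% of Gss exon bases inside those of Acss2, Gssos1 and Gssos2. Their low counts therefore say little about their RNA.

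The remaining transferases and NRF2 targets averaged under 10 TPM, and of these only Gstt1 and Gstt2 were measured. Gstt1 averaged 5.37 ± 1.79 TPM and Gstt2 2.0 ± 0.328 TPM (theta class), Gstk1 3.91 ± 1.97 TPM (kappa class) and Gstz1 1.53 ± 0.308 TPM (zeta class, in tyrosine breakdown). The microsomal, membrane-bound Mgst3 and Mgst1 averaged 4.16 ± 1.46 and 2.88 ± 0.610 TPM (SD, n = 6). In the alpha class Gsta2 averaged 2.41 TPM and Gsta4 1.88 TPM, but 34.2% and 35.9% of their counts were expected as background and Gsta2 reached 11.1 TPM in replicate 5 alone. Gsto1 and Gsto2 (omega class) had 0 counts and lie wholly inside Cfap43. Nqo1, the quinone reductase much used as an NRF2 readout, had 9 counts in all, of which 96.6% were expected as background. That pooled share includes replicate 5, whose background was highest at 326 per Mb. In 2 libraries Nqo1 exceeded 3 times background, with at most 2 counts in any library. At this depth its RNA was not resolved from background. Hmox1, heme oxygenase, had 17 counts and at most 1.37 TPM.

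**Figure D2:**
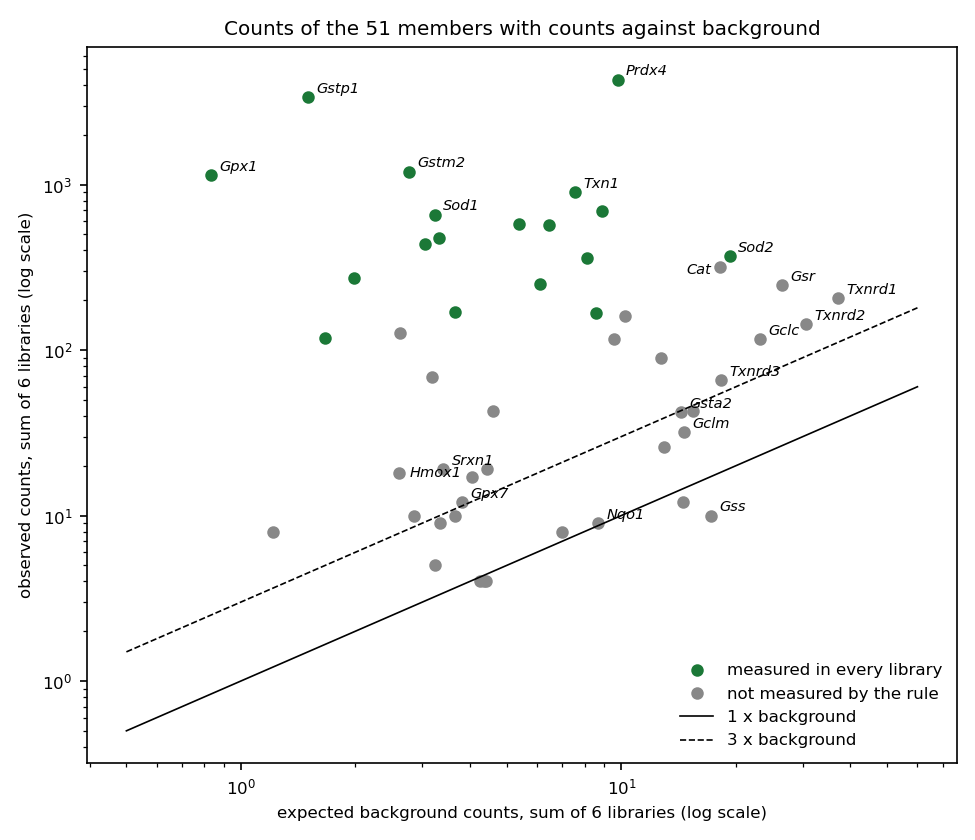
Observed counts (y axis, log scale) against counts expected from the receptor-gene background (x axis, log scale), each summed over 6 libraries, for the 51 members with any count. Green points are measured members and the lines mark 1 and 3 times background; Gstp1, Prdx4 and Gpx1 lie far above both lines, while Nqo1 lies on the lower one.

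Peroxiredoxins made up 30.1% ± 1.76 of the summed member TPM, pi-class transferases 22.1% ± 4.82, glutathione peroxidases 12.9% ± 2.25, mu-class transferases 12.1% ± 2.83 and thioredoxins 10.4% ± 2.39 (SD, n = 6). The peroxiredoxin share was the steadiest of these, from 27.0 to 31.9%. The pi-class share was 23.4, 13.3 and 19.96% in replicates 4, 5 and 6 of set B and 25.9, 25.4 and 24.6% in replicates 1, 2 and 3 of set A. In several families 1 member held most of the TPM. Prdx4 held 71.9% ± 2.20 of peroxiredoxin TPM, Gpx1 68.4% ± 5.77 of glutathione peroxidase TPM, Gstm2 59.1% ± 8.73 of mu-class TPM and Sod1 78.9% ± 4.51 of superoxide dismutase TPM. By principal transcript length these shares were 78.3%, 63.3%, 65.5% and 93.4%, so the leading member of each was the same. Among the microsomal transferases mean TPM was 4.16 for Mgst3, 2.88 for Mgst1 and 0.390 for Mgst2. Mgst1 held 40.4% ± 12.2 of the TPM of that family, ranging from 26.2 to 58.9%. The 3 thioredoxin reductases averaged 1.40 to 1.84 TPM, but Txnrd2 and Txnrd3 reached 5.005 and 4.63 TPM in replicate 5. Medians were 1.38 TPM for Txnrd1, 1.22 TPM for Txnrd2 and 0.886 TPM for Txnrd3.

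**Figure D3:**
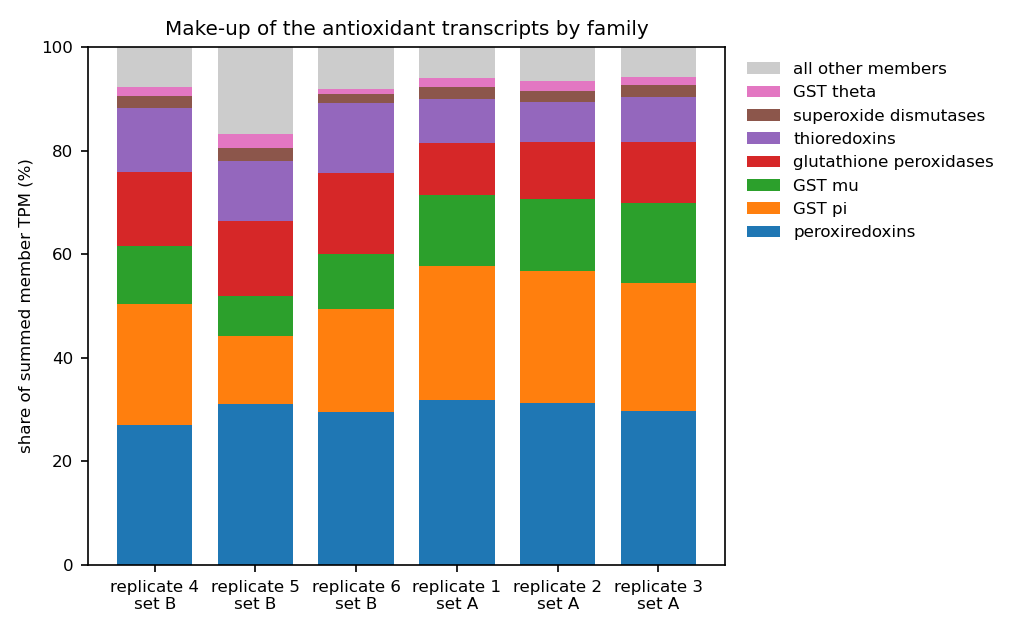
Share of the summed member TPM (y axis, %) held by each family in each library, set B on the left and set A on the right. Peroxiredoxins (bottom blocks) hold 27.0 to 31.9% in every library, and the pi-class block is smallest in replicate 5 (13.3%).

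Pairs of members that differ in compartment, subunit or substrate were compared within each library on the log2(TPM + 1) scale, by flipping signs in all 64 ways (an exact permutation test, two-sided), adjusted by Benjamini-Hochberg over 8 pairs. Of these, 6 passed 0.05, each with the smallest p that 6 libraries allow (0.03125, adjusted 0.0417) and the same sign in 6 of 6 libraries. Prdx4, in the ER, exceeded the cytosolic Prdx1 by 2.51, 2.67 and 3.16 in replicates 4, 5 and 6 of set B and by 3.47, 3.13 and 3.10 in replicates 1, 2 and 3 of set A, a mean of 3.0 ± 0.35 (SD). The mitochondrial members lay below their cytosolic partners for both dismutases and thioredoxins. Sod2 minus Sod1 was -1.88, -1.24 and -1.29 in set B and -1.82, -1.84 and -1.80 in set A, with a mean of -1.65 ± 0.30. Txn2 minus Txn1 was -3.24, -2.67 and -3.56 in set B and -2.99, -2.91 and -2.69 in set A, with a mean of -3.01 ± 0.34.

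Gpx4, acting on lipid peroxides, lay below Gpx1 by a mean of -1.33 ± 0.62, and the gap averaged -1.82 ± 0.46 in set B and -0.85 ± 0.19 in set A. The gap was wider in every set B library than in any set A library, a difference that was not tested. Catalase lay below Gpx1, which also removes hydrogen peroxide, by a mean of -2.53 ± 0.29. Gclm lay below Gclc by -1.07 ± 0.63, a pair whose value is limited by the overlapped exons of Gclm. Prdx3 minus Prdx1 averaged -0.41 ± 0.47 and did not pass (exact adjusted p = 0.143). Txnrd2 minus Txnrd1 averaged 0.12 ± 0.65 (exact adjusted p = 0.875), and without replicate 5 it averaged -0.13, so no order of the 2 reductases was resolved. With background subtracted first, the adjusted exact p of the other 5 passing pairs was 0.05 and that of Gclm minus Gclc 0.0833, so none was under the threshold. The sizes rest on gene length: by the whole counted span Txn2 minus Txn1 was -1.03, Gpx4 minus Gpx1 -3.49 and Cat minus Gpx1 -5.05, and by principal transcript Sod2 minus Sod1 was -3.28, with the same signs and calls. With 5 libraries the smallest p is 0.0625, so no pair can pass when 1 is left out.

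**Figure D4:**
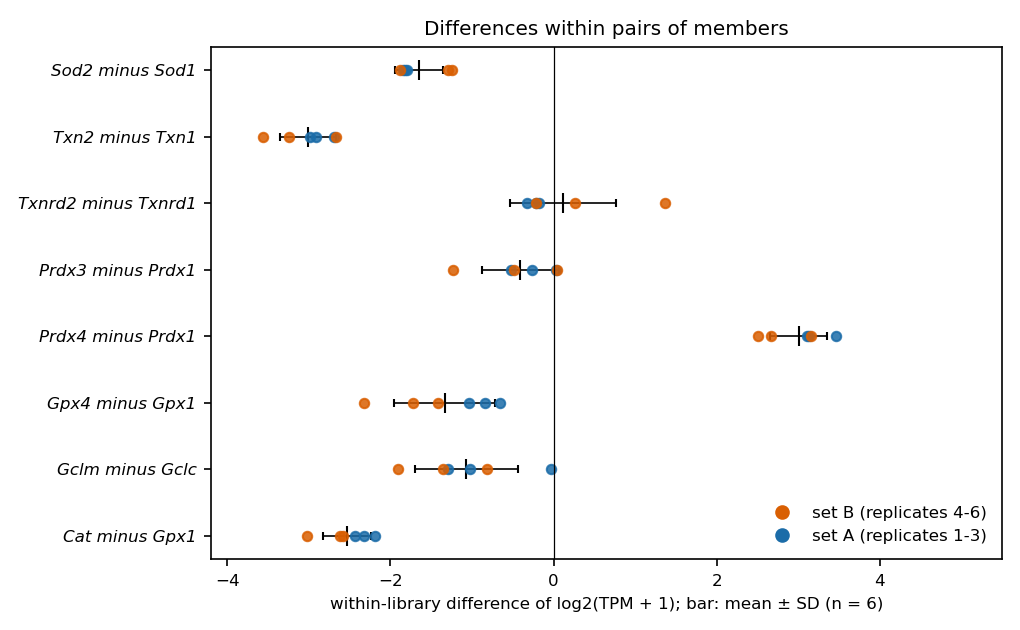
Difference between the members of each pair within a library, in log2(TPM + 1) (x axis), 1 row per pair. Points are libraries (orange set B, blue set A), with the mean ± SD over 6; Prdx4 minus Prdx1 lies above 0 in every library and Txn2 minus Txn1 below 0 in every library, while Txnrd2 minus Txnrd1 spreads to both sides.

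The machinery around these enzymes was described from lists of other genes. Selenium enters Gpx1, Gpx4 and the thioredoxin reductases as selenocysteine. Of 8 listed genes for selenoprotein synthesis 4 averaged at least 1 TPM and 1 was measured, with a median of 1.16 TPM. Sephs2, which makes the selenium donor, was highest at 12.1 ± 1.44 TPM, followed by Eefsec, the selenocysteine elongation factor, at 4.23 ± 2.93 TPM (51.1% of counts expected as background) and Trnau1ap, a partner of the selenocysteine tRNA, at 1.82 ± 0.542 TPM. Of 16 other selenoproteins 10 averaged at least 1 TPM and 9 were measured. Selenop, the selenium carrier of plasma, Selenow and the ER-membrane protein Selenos were highest at 46.5 ± 12.5, 45.4 ± 7.66 and 40.5 ± 3.60 TPM (SD, n = 6), beside 38.9 ± 7.40 TPM for Gpx1.

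Of 13 ER thiol oxidation genes in the files, all averaged at least 1 TPM and 9 were measured, with a median of 7.13 TPM. P4hb, protein disulphide isomerase, stood at 265 ± 31.7 TPM, Ero1lb, the oxidase that produces hydrogen peroxide while re-oxidising it, at 24.1 ± 2.66 TPM and Pdia6 at 22.3 ± 2.12 TPM. The lists were not drawn at random, and their shares set against the 32.3% of protein-coding genes at 1 TPM are descriptions.

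Of 22 genes of glutathione breakdown, transport and glutaredoxins, 11 averaged at least 1 TPM and 7 were measured. Ggt1, the surface enzyme that begins the breakdown of extracellular glutathione, stood at 28.9 ± 9.39 TPM, Slc3a2, the heavy chain of the cystine transporter and other amino acid transporters, at 16.8 ± 3.75 TPM and Hagh, a glyoxalase that releases glutathione, at 7.21 ± 3.13 TPM. Of 15 genes that supply NADPH, the reductant for Gsr and the thioredoxin reductases, 12 averaged at least 1 TPM and 5 were measured. Taldo1 of the pentose phosphate pathway, mitochondrial Idh2 and mitochondrial Mthfd2 led at 13.6 ± 2.82, 12.7 ± 5.6 and 9.13 ± 1.87 TPM. Of 10 genes of NRF2 regulation 6 averaged at least 1 TPM and 2 were measured. Sqstm1, the autophagy adaptor that binds the NRF2 inhibitor KEAP1, stood at 14.0 ± 3.52 TPM, the ubiquitin ligase scaffold Cul3 at 3.67 ± 1.26 TPM and the small Maf factor Mafk at 2.59 ± 1.20 TPM.

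Between the sets, most members were lower in set B than in set A relative to the median gene, and none passed the threshold over all genes. Of the 28 members with enough counts to test, 25 were lower and 3 higher in the edgeR quasi-likelihood fit, with a median log2 fold change of -0.62 against -0.004 over all 8723 genes tested. The other 27 were not tested. With Benjamini-Hochberg adjustment over all genes, 0 members were called (smallest adjusted p 0.0874), against 0.0115% of genes called higher and 0% called lower. At an unadjusted p under 0.05 there were 12 members, all lower, against 851 of 8723 genes lower and 2258 in either direction. DESeq2 called 3 members lower (Gstm1, Prdx4 and Prdx6) and 0 higher, against 2.6% and 9.1% of genes.

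The largest difference was that of Gstm1. It had 7.88, 3.98 and 5.30 TMM-scaled CPM in replicates 4, 5 and 6 of set B and 20.1, 19.8 and 22.4 CPM in replicates 1, 2 and 3 of set A, a log2 fold change of -1.86 (SE 0.31, edgeR adjusted p = 0.0874). Every set B library was below every set A library. Gstm7 had 0.773, 0.663 and 1.18 CPM in set B and 4.46, 2.09 and 2.05 CPM in set A (log2 fold change -1.70, SE 0.51). Prdx6 had 10.4, 5.31 and 10.7 CPM in set B and 24.3, 23.9 and 19.0 CPM in set A (-1.34, SE 0.32). For these genes, too, the sets did not overlap.

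Prdx5 and Gstk1 were the next lowest at -1.24 (SE 0.56) and -1.23 (SE 0.54). For both, replicate 5 was lowest, at 0.829 and 0.663 CPM. The 3 members with a positive log2 fold change were Txnrd2 at 0.66 (SE 0.43), Mgst3 at 0.20 (SE 0.42) and Gclc at 0.20 (SE 0.49), all with overlapping sets. Gpx1, Txn1 and Gsr lay near 0 at -0.15 (SE 0.31), -0.15 (SE 0.34) and -0.03 (SE 0.31). The groups did not overlap for 15 of the 28 members, all lower in set B, against 17.2% of genes lower and 15.5% higher without overlap.

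**Figure D5:**
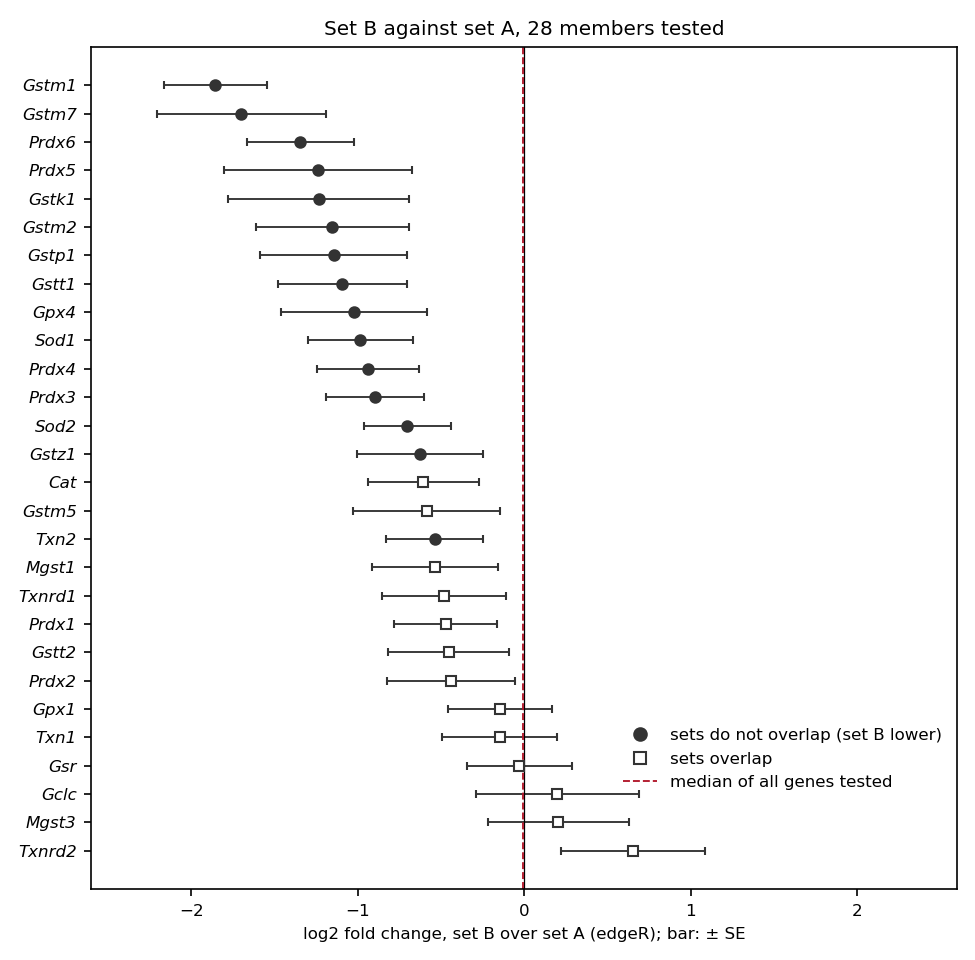
log2 fold change of set B over set A with its SE (x axis, edgeR with TMM scaling) for the 28 tested members, 1 row per gene. Filled points have no overlap between sets, open squares overlap, and the dashed red line is the median of all genes tested; 25 members lie left of 0, a count that is 12 when counts are scaled to the protein-coding total.

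The direction depends on what the libraries are scaled to. With counts scaled to the total of protein-coding nuclear genes, 12 of the 28 members were lower and 16 higher in set B, and the median over all tested genes was 0.75 on the log2 scale. A change of scaling moves all genes of a library together, so the members' place relative to the median gene, with 25 of 28 below it, is nearly fixed by construction and is no further evidence. As a share of protein-coding nuclear counts the members took 0.111, 0.0767 and 0.0990% in replicates 4, 5 and 6 of set B and 0.0987, 0.105 and 0.104% in replicates 1, 2 and 3 of set A, which overlap. By TPM in place of counts the share was 0.0958, 0.0786 and 0.0938% in set B. In set A it was 0.0676, 0.0756 and 0.0733%, so on that scale set B was higher without overlap. In bulk samples, fewer cells of a type and less RNA per cell cannot be told apart.

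Single libraries decided the count of calls. Without replicate 4, edgeR called 7 members lower (Gpx4, Gstm1, Gstm2, Gstp1, Gstt1, Prdx6 and Sod1) and 0 higher of 30 tested, against 5.72% of genes called lower and 16.9% called higher. Without replicate 5 it called 8 lower (Gpx4, Gstm1, Gstm2, Gstp1, Prdx3, Prdx4, Prdx6 and Sod1) and 0 higher of 30 tested, against 4.07% and 4.04% of genes. Leaving out replicate 1, 2, 3 or 6 gave 0. Other values also differed between the libraries, some of them by set. The 10 acinar markers summed to 116699 to 182012 TPM in set B and 296630 to 341747 TPM in set A. The 10 endocrine markers, of which Iapp had no counts, summed to 42.4 to 2243 TPM in set B and 9.34 to 40.0 TPM in set A. Replicate 5 of set B, at 42.4 TPM, lay close to replicate 1 of set A, at 40.0 TPM. The 7 erythroid markers, of which Alas2 had no counts, summed to 1.13, 2.36 and 38.2 TPM in replicates 4, 5 and 6 of set B. In set A they summed to 0 to 0.745 TPM. The endothelial list overlapped between the sets, at 0.974 to 11.7 TPM in set B and 0.869 to 2.84 TPM in set A. The fibroblast and stellate list overlapped too, at 4.76 to 17.5 TPM in set B and 1.97 to 21.3 TPM in set A. Single genes chosen after their values were seen also separated the sets: Top2a, a gene of dividing cells, had 43, 39 and 43 counts in replicates 4, 5 and 6 of set B and 1, 2 and 1 counts in replicates 1, 2 and 3 of set A. Ptprc, the pan-leukocyte marker, had 20, 35 and 19 counts in set B and 1, 1 and 9 counts in set A. The summed myeloid list, which holds Ptprc, overlapped, at 3.18 to 14.2 TPM in set B and 5.18 to 7.37 TPM in set A, and the lymphoid list summed to 0.192 to 2.78 TPM in set B and 0 to 0.331 TPM in set A. The part of these, of the ribosomal RNA share and of the receptor-gene background in the difference was not tested. Several of them, such as the acinar sum, the ribosomal RNA share and the background, separated the sets without overlap. The sets cannot be told apart from those.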

How the data were processed

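RNA was measured in 6 libraries of 300 sorted cells, made with a Smart-seq2 variant that used 12 PCR cycles before library construction, per the labels' protocols. Per the submitters' processing notes, the authors used Trim Galore 0.6.4, FastQC, STAR 2.7.9a, SAMtools and featureCounts with build mm10. The authors deposited raw, unnormalized counts, with 1 row per symbol. Their Length column, another quantity, is the whole distance between start and end in each of the 55253 single-interval symbols, so introns were counted too. The annotation release, strand setting and handling of multiply aligned reads are not given in the sources used here. Genomic DNA is the molecule named in the labels, whose title and protocol describe RNA-seq. Counts of every pair of libraries differed by more than counting noise, with reads taken as independent, so no library was treated as deposited in duplicate.

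TPM was computed from counts and union exon lengths of GENCODE M21 (GRCm38, the same assembly as mm10), which gave a length for 55121 symbols with 99.9594% of counts. Background was taken over 1489 protein-coding olfactory and vomeronasal receptor genes (12.98 Mb, 7537 counts). The set comparison used the quasi-likelihood test of edgeR 4.0.16 over all genes after TMM scaling and filterByExpr, with DESeq2 1.42.0 as an alternative, and limma 3.58.1 was the alternative for pairs, in R 4.3.3 and Python 3.11.15. Pairs used the exact sign-flip test with a pseudocount of 1, so log2 differences understate those of low genes. Scripts were tested on simulated data. Promoter windows came from RefSeq (GRCm38.p6); 7 members had none.

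The members and lists were chosen with earlier results of these data known. Named were all members with a mean of at least 1 TPM or with no counts, any called by edgeR, the 5 largest positive (only 3 existed) and 5 largest negative set differences, and the 3 highest genes of each list. Other genes named were chosen after their values were seen. Alternatives covered the pseudocount, gene length, background, scaling total, test, filter, normalization and each library left out.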

Additional observations from a re-analysis of the deposited data

Results flagged for a closer look

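In each of these results 1 library stood apart from the other 5 by more than Dixon's critical value for 6 samples. Of 40 values tested (32 members and 8 pairs) 6 were flagged. The critical value flags about 1 in 20 by chance only for normally distributed, independent values. Some of these genes had few counts, and the flagged pair holds Txnrd2, which was itself flagged. No excess over chance is therefore read from the number of flags.

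Gsta2 had 11.1 TPM in replicate 5 (28 counts, of which 8.09 were expected as background), against 0 to 1.75 TPM in the other libraries. Txnrd2 reached 5.005 TPM in replicate 5 (47 counts, 17.2 expected), against 0.971 to 1.55 TPM. Txnrd3 reached 4.63 TPM in replicate 5 (28 counts, 10.3 expected), against 0.377 to 1.07 TPM. The difference Txnrd2 minus Txnrd1 was 1.37 in replicate 5 on the log2(TPM + 1) scale, against -0.33 to 0.26 elsewhere. Replicate 5 also had the highest background, 326 counts per Mb, and the part of that background in these values was not tested.

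Gpx3 had 3.58 TPM in replicate 6 (22 counts), against 0.334 to 0.871 TPM in the others. Replicate 6 also had the highest summed endocrine markers, 2243 TPM, and erythroid markers, 38.2 TPM, and their part in the Gpx3 value was not tested. Gstm7 had 4.09 TPM in replicate 1 (29 counts, 0.145 expected as background), against 0.925 to 2.08 TPM in the others.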

How the results depend on the processing

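Libraries could not be paired across groups, because all 6 belong to 1 group, and the only pairing was of genes within a library. Leaving out each library in turn moved the mean differences to between -1.73 and -1.60 (Sod2 minus Sod1), -3.08 and -2.90 (Txn2 minus Txn1), 2.91 and 3.10 (Prdx4 minus Prdx1), -1.47 and -1.14 (Gpx4 minus Gpx1), -1.28 and -0.90 (Gclm minus Gclc), -2.599 and -2.43 (Cat minus Gpx1), -0.49 and -0.24 (Prdx3 minus Prdx1) and -0.13 and 0.21 (Txnrd2 minus Txnrd1). Gene length moved several pairs much further without ending the call: Txn2 minus Txn1 was -1.03 by gene span and -2.01 by principal transcript, Sod2 minus Sod1 -2.34 and -3.28, Gpx4 minus Gpx1 -3.49 and -0.91, Cat minus Gpx1 -5.05 and -2.76, and Prdx4 minus Prdx1 2.13 and 3.62. With a pseudocount of 0.1 Gclm minus Gclc was -2.46. With 1 library left out the 6 passing pairs had an adjusted exact p of 0.0833, since 5 libraries allow no smaller one. With background subtracted the same 6 were -1.71, -3.03, 3.03, -1.37, -0.92 and -2.66, with adjusted exact p of 0.05 to 0.0833. By gene span length Gclm minus Gclc was -0.16 and did not pass, Prdx3 minus Prdx1 was -0.65 and passed, and Txnrd2 minus Txnrd1 reversed to -0.036. By principal transcript length, an alternative chosen after seeing the data, Prdx3 minus Prdx1 was -0.71 and passed, and Txnrd2 minus Txnrd1 reversed to -0.12. By gene span length 17 members averaged at least 1 TPM, against 32. Leaving out 1 library gave 18 to 29 measured members and 30 to 32 with at least 1 TPM. Leaving out overlapped members, also chosen after seeing the data, kept the counts of 32 and 18.

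Between the sets edgeR called 1 gene higher and 0 lower. DESeq2 called 794 higher and 227 lower, with 3 members lower. Without the filter on low counts edgeR called 790 higher and 203 lower, again with 3 members lower. Leaving out 1 library gave 0 to 1656 genes higher, 0 to 561 lower and 0 to 8 members lower. Mgst3 reversed to -0.074 without the filter and ranged from -0.15 to 0.50 with 1 library left out (negative without replicate 3 or 4), and Gclc reversed to -0.098 without the filter and ranged from -0.31 to 0.34 (negative without replicate 1). The cause of these moves was not tested. Members under 1 TPM are limited by low counts and, for some, by overlap with other genes or by background.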

Other observations

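Of 14 other NRF2 target genes in the files 7 averaged at least 1 TPM and 5 were measured, with a median of 1.05 TPM. The ferritin subunits Fth1 and Ftl1, which store iron and keep it from reacting with hydrogen peroxide, stood at 77.1 ± 20.7 and 73.0 ± 35.2 TPM (SD, n = 6). Ftl1 had 73.2, 20.6 and 42.5 TPM in replicates 4, 5 and 6 of set B and 96.7, 113 and 92.5 TPM in replicates 1, 2 and 3 of set A. Slc48a1, a heme transporter, followed at 4.28 ± 1.40 TPM.

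Of 12 thioredoxin family partners 8 averaged at least 1 TPM and 2 were measured, with a median of 2.17 TPM. Txndc17, a small thioredoxin-like protein, stood at 20.9 ± 5.44 TPM and Sesn1, a stress-inducible sestrin, at 13.1 ± 3.11 TPM. Msra, which repairs oxidised methionine, stood at 5.03 ± 3.29 TPM, with 49.2% of its counts expected as background. Txnip, the thioredoxin inhibitor, had no counts and lies wholly inside the span of another gene, so no absence is read from it.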
